A study of Mus musculus with 6 samples.

Results

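Gapdh, Actb, B2m, Hprt, Tbp, Ppia, Ywhaz, Gusb and Polr2a are mouse genes in wide use as references for quantitative PCR (qPCR). They were chosen by name as genes in that use. All 9 were found among the 55401 genes of the count files, and all 9 passed the filter on low counts that left 18539 genes for testing. Gapdh was assayed in the study's qPCR beside Ccn1, Ccn2, Ankrd1 and Amotl2. It is taken here as the reference of that assay, and the other genes as its targets. Gapdh is also one of the glycolysis genes, and the targets belong to the YAP/TAZ target genes.

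A reference gene is an internal standard. The amount of a target is divided by that of the reference in the same sample, which cancels differences in RNA input and in the yield of reverse transcription. Any change of the reference itself between groups is thereby subtracted, on the log scale, from every target scaled to it. The usual references come from several cellular processes, though some share one, as Tbp and Polr2a do in transcription.

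The cells were NIH3T3, an immortalized mouse embryonic fibroblast line, and poly(A) RNA was sequenced from 6 libraries. EV cells carried an empty vector and received the solvent DMSO (n = 2). TC cells expressed TAZ-CAMTA1, a fusion of the Hippo pathway coactivator TAZ with the transcription factor CAMTA1, and also received DMSO (n = 1). TC + ATA cells expressed the same fusion and received 10 µM aurintricarboxylic acid (ATA), a compound studied as a blocker of the binding of TAZ to TEAD proteins, for 48 h (n = 3). TC versus EV sets fusion cells against the control, and TC + ATA versus TC sets treated fusion cells against untreated ones. TC + ATA versus EV sets treated fusion cells against the control. The TC library enters both of the first comparisons, in opposite roles, and the EV libraries enter both comparisons with EV. Any other difference between the EV cells and the fusion-expressing cells cannot be told apart from the fusion.

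Library totals were 74413193 and 70428345 counts in EV, 71677675 in TC, and 58471484, 72252063 and 69969024 in TC + ATA. The lowest count of any reference gene in any library was 2660, for Tbp in TC + ATA replicate 1. Levels are given as CPM (counts over the TMM-scaled library size), where TMM equalizes libraries over the bulk of genes. Changes are given as LFC (log2 fold change). No spike-in RNA was reported, so absolute amounts per cell are unknown, and in bulk RNA fewer expressing cells and less RNA per cell cannot be told apart. The labels do not say whether replicates were separate cultures, so the p-values measure spread between these libraries, which may be technical. TC has 1 library and no replicate check, so every standard error, interval and p-value of a comparison with TC assumes that TC varies like the EV and TC + ATA libraries. Those groups did not vary alike. For Ppia the standard deviation of log2 CPM was 0.35 in EV and 0.014 in TC + ATA. For B2m it was 0.24 and 0.009. The order was reversed for Gusb (0.004 and 0.064) and Actb (0.057 and 0.063). The EV pair enters the spread used for TC + ATA versus TC too, so a gene uncalled there is not thereby unchanged.

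The label of the cells was checked against marker genes. All 10 fibroblast markers passed the filter, and their summed level was 16866 and 14719 CPM in EV, 18606 CPM in TC, and 19411, 19161.5 and 18225 CPM in TC + ATA. Col1a2, a collagen chain, was the most abundant of them in EV, at 5375 ± 350.2 CPM (SD, n = 2). The sum hides opposite changes, since edgeR called 2 of the 10 higher in TC than in EV (Vim, LFC 0.64, and Col1a1, 0.53) and 3 lower, led by Thy1 (−1.47) and Pdgfra (−1.20), against 28.0% of all genes tested called. The sum of 4 epithelial markers was at most 0.494 CPM in any library, with Krt18 at 0 in both EV libraries. The sum of 4 endothelial markers was at most 3.44 CPM, and that of 4 haematopoietic markers at most 8.51 CPM.

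The libraries differed in composition within EV as well as between groups. Ribosomal protein genes took 8.87% of the counts of EV replicate 1 and 6.93% of EV replicate 2, against 6.18% in TC and 6.02%, 6.26% and 6.24% in TC + ATA. Mitochondrial genes took 1.15% and 1.60% in EV, 1.84% in TC, and 2.11%, 1.72% and 1.99% in TC + ATA. EV replicate 1 was thus the highest library for the former and the lowest for the latter. What part this composition has in the levels below was not tested.

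Gapdh encodes the glycolytic enzyme glyceraldehyde-3-phosphate dehydrogenase. It lies on chromosome 6 of GRCm38 from 125161715 to 125166467 (ENSMUSG00000057666). Its level was 91.2 and 78.2 CPM in EV, 121 CPM in TC, and 110.5, 112 and 118 CPM in TC + ATA. Every library of the fusion-expressing cells lay above both EV libraries. Against EV, TC had an LFC of 0.51 (standard error 0.10, 95% interval 0.28 to 0.74, adjusted p = 0.00504 from edgeR). For TC + ATA against EV the LFC was 0.42 (standard error 0.08, adjusted p = 0.00249 from edgeR). Both calls were lost when pseudogene copies were added to Gapdh, as described with those copies.

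Actb encodes beta-actin, the main cytoskeletal actin, on chromosome 5 from 142903115 to 142906754 (ENSMUSG00000029580). It had 2159 and 2282 CPM in EV, 3387 CPM in TC, and 2943, 2833 and 2698 CPM in TC + ATA. TC was the highest library, EV held the lowest pair, and no groups overlapped. Its LFC was 0.61 for TC against EV (standard error 0.10, 95% interval 0.37 to 0.84, adjusted p = 0.00230 from edgeR). That call was lost with a replicate block, which adds the replicate number to the model (LFC 0.62, standard error 0.19, adjusted p = 0.0539 from edgeR), and when only the groups compared were fitted (LFC 0.61, standard error 0.33, adjusted p = 0.210 from edgeR). The LFC kept its size and its standard error grew. The LFC was 0.35 for TC + ATA against EV (standard error 0.08, adjusted p = 0.00825 from edgeR). This second call was lost with the replicate block (LFC 0.38, adjusted p = 0.0883 from edgeR), without TC + ATA replicate 1 (LFC 0.32, adjusted p = 0.0754 from edgeR) and without TC + ATA replicate 2 (LFC 0.35, adjusted p = 0.0706 from edgeR).

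B2m encodes beta-2-microglobulin, the light chain of MHC class I, on chromosome 2 from 122147686 to 122153083 (ENSMUSG00000060802). Its level was 249.6 and 198 CPM in EV, 412 CPM in TC, and 489.9, 489 and 494 CPM in TC + ATA. The groups did not overlap, and the TC + ATA libraries were the highest. B2m had the largest change of the reference genes, with an LFC of 0.88 for TC against EV (standard error 0.12, 95% interval 0.60 to 1.16, adjusted p = 0.000780 from edgeR). Against EV, TC + ATA had 1.13 (standard error 0.10, 95% interval 0.91 to 1.36, adjusted p = 2.70e-05 from edgeR).

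Polr2a encodes the largest subunit of RNA polymerase II, on chromosome 11 from 69733997 to 69758637 (ENSMUSG00000005198). It had 159.9 and 132 CPM in EV, 223 CPM in TC, and 203 CPM, 189 CPM and 194 CPM in TC + ATA. All fusion-expressing libraries again lay above EV, with TC the highest. Polr2a had an LFC of 0.61 for TC against EV (standard error 0.11, 95% interval 0.36 to 0.86, adjusted p = 0.00342 from edgeR) and 0.42 for TC + ATA against EV (standard error 0.09, adjusted p = 0.00478 from edgeR).

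Hprt encodes a purine salvage enzyme, on the X chromosome from 52988137 to 53021659 (ENSMUSG00000025630). It had 89.2 and 72.6 CPM in EV, 95.6 CPM in TC, and 89.4, 89.7 and 89.3 CPM in TC + ATA. Replicate 1 of EV sat just under the treated libraries and replicate 2 well under them. Hprt had an LFC of 0.24 for TC against EV (standard error 0.11, 95% interval −0.02 to 0.50, adjusted p = 0.153 from edgeR), and the gene was not called.

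Ppia encodes cyclophilin A, a peptidyl-prolyl isomerase, on chromosome 11 from 6415443 to 6419817 (ENSMUSG00000071866). It had 1682 and 1189.8 CPM in EV, 1478 CPM in TC, and 1565, 1563 and 1539 CPM in TC + ATA. The EV libraries were its highest and its lowest, and the other groups lay between them. Between TC and EV its LFC was 0.04 (standard error 0.17, 95% interval −0.35 to 0.43), −0.06 when libraries were scaled by their totals only, and −0.07 in a fit with replicate numbers as blocks. Without EV replicate 1 it was 0.30 and called (adjusted p = 2.63e-05 from edgeR), and without EV replicate 2 it was −0.19 and called (adjusted p = 0.000862 from edgeR). Each EV library alone thus gives a call, in opposite directions.

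Tbp encodes the TATA-binding protein, on chromosome 17 from 15499888 to 15528379 (ENSMUSG00000014767). It had 45.3 and 50.1 CPM in EV, 48.9 CPM in TC, and 46.8, 43.2 and 44.1 CPM in TC + ATA. All groups overlapped EV. For Tbp the LFC between TC and EV was 0.03 (standard error 0.09, 95% interval −0.18 to 0.25), −0.08 with scaling by library totals only, and −0.05 without EV replicate 1.

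Ywhaz encodes the zeta form of the 14-3-3 adaptor proteins, on chromosome 15 from 36770770 to 36796929 (ENSMUSG00000022285). It had 298 and 315 CPM in EV, 311 CPM in TC, and 288, 287 and 277 CPM in TC + ATA. TC fell between the EV libraries, and the treated libraries lay below both. For Ywhaz the LFC between TC and EV was 0.02 (standard error 0.08, 95% interval −0.17 to 0.21), −0.09 with scaling by library totals only, and −0.03 without EV replicate 1. Between TC + ATA and EV it was −0.11 (adjusted p = 0.207 from edgeR), and with scaling by library totals only it was −0.20 and called (adjusted p = 0.0388 from edgeR).

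Gusb encodes the lysosomal enzyme beta-glucuronidase, on chromosome 5 from 129989011 to 130003049 (ENSMUSG00000025534). It had 75.8 and 75.6 CPM in EV, 73.5 CPM in TC, and 90.2, 83.65 and 83.3 CPM in TC + ATA. The EV pair was nearly identical, TC lay just under it and the treated libraries above it. Gusb had an LFC of −0.04 for TC against EV (standard error 0.08, 95% interval −0.23 to 0.15) and 0.18 for TC + ATA against EV (standard error 0.06, adjusted p = 0.0519 from edgeR). The latter was called without EV replicate 1 (0.17, adjusted p = 0.0225 from edgeR) and without EV replicate 2 (0.19, adjusted p = 0.0144 from edgeR).

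**Figure D1:**
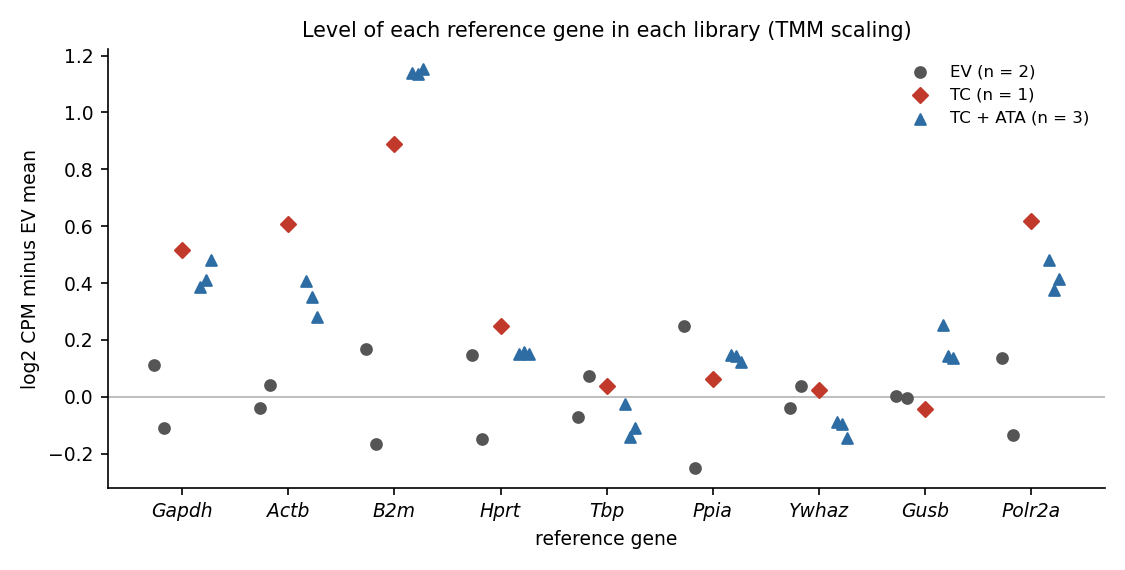
Level of each reference gene in each library, as log2 CPM minus the mean of the EV libraries (circles EV, n = 2; diamond TC, n = 1; triangles TC + ATA, n = 3). Gapdh, Actb, B2m and Polr2a lie above EV in every fusion-expressing library, and the EV pair of Ppia spans its other libraries.

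In TC versus EV, 4 of the 9 reference genes were called higher and 0 lower at an adjusted p of at most 0.05 (edgeR's quasi-likelihood test with Benjamini-Hochberg adjustment), against 28.0% of the 18539 genes tested. DESeq2 also called 4, and edgeR had 4 at an unadjusted p under 0.05. The median LFC of the reference genes was 0.24, and that of all genes tested was −0.03. Without EV replicate 1 the count was 6, with Hprt (0.39) and Ppia added, and without EV replicate 2 it was 5, with Ppia called lower. Those fits called 7454 and 7329 genes in all, against 5191 with all libraries. With pseudogene copies added to Gapdh, Actb, Ppia and Ywhaz, 3 reference genes were called. With 1 EV library left, that library is assumed to vary like the TC + ATA group. Scaling by library totals only moved the median of all genes to −0.13 in this comparison, a shift of −0.11, and 2072 of the 5231 calls were then higher, against 2735 of 5191 with TMM.

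In TC + ATA versus TC, edgeR called 0 of the 9, against 0.583% of all genes tested. At an unadjusted p under 0.05 there were 2, Actb (LFC −0.26, standard error 0.10) and Gusb (0.22, standard error 0.08). Their adjusted p was 0.421 and 0.400, and DESeq2 called 0. The median LFC of the 9 was −0.10, and that of all genes was 0.00. The other values were −0.09 for Gapdh, 0.25 for B2m, −0.10 for Hprt, −0.13 for Tbp, 0.07 for Ppia, −0.13 for Ywhaz and −0.19 for Polr2a. These counts depended on which libraries were fitted. Without EV replicate 1, 5 reference genes and 1469 genes in all were called, and without EV replicate 2 there were 4 and 1416. Actb, B2m, Gusb and Polr2a were called in both, and Ywhaz without EV replicate 1 only. Against the 108 genes called with all libraries, 40 were called without TC + ATA replicate 1, 28 without replicate 2 and 10 without replicate 3, with 0 reference genes in each.

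In TC + ATA versus EV, 4 of the 9 were called higher and 0 lower, against 36.6% of all genes, and the genes were again Gapdh, Actb, B2m and Polr2a. DESeq2 called 5, adding Gusb. The median LFC was 0.18 for the 9 and −0.01 for all genes. Uncalled were the other genes, at 0.15 for Hprt, −0.09 for Tbp, 0.12 for Ppia, −0.11 for Ywhaz and 0.18 for Gusb. Without EV replicate 1 all 9 were called, with Tbp (−0.18) and Ywhaz (−0.16) lower and Hprt (0.29), Ppia (0.37) and Gusb higher, and 8477 genes in all were called in that fit against 6789 with all libraries. Without EV replicate 2 the count was 6, with Ppia at −0.10 and called lower and Gusb called higher, among 7967 genes in all. It was 3 without TC + ATA replicate 1 (5140 genes in all) and 3 without TC + ATA replicate 2 (5013). It was also 3 with pseudogene copies added to Gapdh, Actb, Ppia and Ywhaz. With library totals only, 2711 of 7095 calls were higher, against 3340 of 6789 with TMM.

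The reference genes therefore span a range of LFCs, which is about the widest shift that an exchange of references can give any target. Between TC and EV the range was 0.92, from Gusb to B2m. Between TC + ATA and TC it was 0.52, from Actb to B2m. Between TC + ATA and EV it was 1.24, from Ywhaz to B2m.

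Evenness over the 6 libraries was measured by the standard deviation (SD) of log2 CPM, without regard to group. The SD was 0.07 for Ywhaz, 0.08 for Tbp, 0.11 for Gusb, 0.14 for Hprt and 0.17 for Ppia. It was 0.24 for Actb, 0.25 for Gapdh, 0.27 for Polr2a and 0.58 for B2m. The order depends on the scaling of libraries. With library totals only, Hprt had the lowest SD at 0.08, then Gusb at 0.11, Ywhaz at 0.11, Tbp at 0.12 and Ppia at 0.13. With TMM, of the 9265 genes with a mean of at least 10 CPM, whose median SD was 0.16, 10.3% were more even than Ywhaz, 15.6% more even than Tbp and 94.7% more even than B2m. Gapdh had 73.3% of those genes below it. Ppia and Hprt owed much of their SD to EV replicate 2, without which it was 0.07 for Ppia and 0.04 for Hprt.

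The geNorm M value is the mean SD of the log2 ratios of a gene to the other references, and needs no scaling of libraries. It was lowest for Hprt at 0.20, then Gapdh at 0.22, Polr2a at 0.23, and Actb, Gusb and Ppia at 0.24. Ywhaz had 0.26, Tbp 0.27 and B2m 0.49. The order differs from that by SD with TMM.

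Some genes outside the panel varied far less. Among the 4607 genes with a mean of at least 50 CPM, the smallest SD was that of Arfgap2 (0.01), which encodes a regulator of vesicle coats, with a lowest level of 54.6 and a highest of 55.7 CPM. Tnks (SD 0.02) ran from 77.2 to 79.4 CPM and Psme4 (0.02) from 109.8 to 114 CPM. Wdr26 (0.02) ran from 176 to 184 CPM and Heatr3 (0.02) from 80.7 to 84.1 CPM. They were picked for this evenness, which is therefore a description.

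Levels of different genes were compared per length of annotated exons, as CPM per kb averaged over the 6 libraries. Actb stood first at 1014 (lowest library 806, highest 1264). B2m followed at 452 (230.3 to 575) and Ppia at 428 (339 to 480), whose ranges overlapped. Ywhaz at 71.9 and Hprt at 68.0 overlapped as well. Polr2a at 25.97, Gapdh at 25.4 and Gusb at 17.7 overlapped from each to the next. The value for Gapdh counts only the reads assigned to it. These were between 7.31% and 8.83% of its sum with its near copies, described below, so its place here is uncertain. Tbp came last at 3.42, over 13576 annotated exonic bases, which include long alternative exons.

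For each reference gene the genes with the nearest pattern were found by the Euclidean distance between log2 CPM profiles centred over the 6 libraries. For Gapdh they were Eef1e1 (distance 0.06) and Nploc4 (0.08), and for Actb they were Tcof1 (0.07) and Ipo7 (0.08). For B2m they were Tmsb4x (0.07) and Lgals9 (0.11). Hprt had Nifk and Cct5 (0.04 each), Tbp had Zw10 (0.04) and Inppl1 (0.05), and Ppia had Psmb4 (0.04) and Nme1 (0.05). Ywhaz had Abcb10 (0.04), Gusb had Fam50a and Cd276 (0.06 each), and Polr2a had Gpi1 (0.07) and Vim (0.08).

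The reads of Gapdh are shared with a large family of copies. Its longest coding transcript was broken into 1371 overlapping words of 50 bases, and 19 other annotated genes held at least 50% of them, 17 of which are processed pseudogenes. None of the other reference genes had such a copy. In the count files Gapdh itself held 43608 counts over the 6 libraries and these copies held 480783. The copies thus had 12.7 and 10.4 times the count of Gapdh in EV, 11.0 times in TC, and 11.1, 10.8 and 10.3 times in TC + ATA. Gapdh made up between 7.31% and 8.83% of the sum.

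Most of that count, 92.7%, was assigned to Gm13394, a processed pseudogene of 1000 bases on the minus strand of chromosome 2 from 28933610 to 28934609. Its level was 1073 and 757 CPM in EV, 1232 CPM in TC, and 1131, 1124 and 1128 CPM in TC + ATA. TC was its highest library and EV replicate 2 its lowest, as for Gapdh. Gm13394 had an LFC of 0.43 for TC against EV (standard error 0.17, adjusted p = 0.0930 from edgeR) and 0.30 for TC + ATA against EV (standard error 0.13, adjusted p = 0.101 from edgeR). Per length, at 1074 CPM per kb, it was close to Actb. Of the 1002 coding bases of Gapdh, 1000 could be set against it, and 1 differed, A346C, counted from the first coding base. The longest identical run was 654 bases. The stretch around that difference, from coding base 306 to 386, shows how little separates the pair for a short read, with the differing base in capitals.
Gapdh: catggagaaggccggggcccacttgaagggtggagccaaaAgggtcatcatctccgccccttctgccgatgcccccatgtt
Gm13394: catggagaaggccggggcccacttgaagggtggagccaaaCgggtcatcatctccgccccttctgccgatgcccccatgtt

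**Figure D2:**
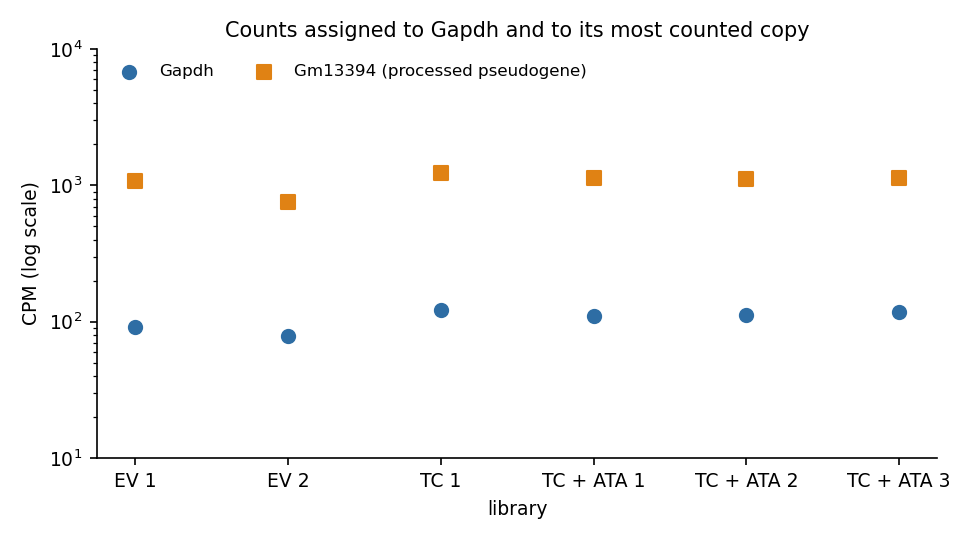
CPM assigned to Gapdh (circles) and to its processed pseudogene Gm13394 (squares) in each library, on a log scale. Gapdh lies between 78.2 and 121 CPM and Gm13394 between 757 and 1232 CPM, and both are lowest in EV replicate 2 and highest in TC.

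The counts cannot say which gene such reads came from, so the level of Gapdh is uncertain by this margin. When the counts of all 213 pseudogenes that share at least 1 word with Gapdh were added to it, and likewise for Actb, Ppia and Ywhaz, a setting chosen after seeing the data, the level of Gapdh became 1286 and 922 CPM in EV, 1495 CPM in TC, and 1382, 1369.6 and 1382 CPM in TC + ATA. TC was the highest library and EV replicate 2 the lowest in the sum too. The sum had an LFC of 0.44 for TC against EV (standard error 0.16, adjusted p = 0.0806 from edgeR). For TC + ATA against EV its LFC was 0.32 (standard error 0.13, adjusted p = 0.0771 from edgeR). The calls of Gapdh in both comparisons were thus lost, with the spread between the EV libraries larger in the sum, and 3 reference genes were called in each.

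Pseudogenes mattered less for the rest. Those sharing at least 1 word with Ppia numbered 35 and held between 3.86% and 4.32% of its count in any library. Actb had 14, with 1.56% to 2.84% of its count, and Ywhaz had 3, with 1.06% to 1.35%. B2m, Hprt, Tbp, Gusb and Polr2a had 0. It is not stated whether reads were counted by strand. Exons that overlap a gene on the opposite strand could thus hold reads of both genes, or lose reads at counting. Gapdh overlaps Iffo1 over 68 of its 4133 exonic bases, and Iffo1 had 6533 counts over all libraries. Tbp overlaps Pdcd2 over 2582 of its 13576, and Pdcd2 had 0 counts, which does not show that it had no reads there. The target Ccn2 overlaps Gm15270 over 665 of its 2861, and Gm15270 had 102 counts.

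The effect of the reference on a target was measured by fitting all genes again with each library scaled to the count of a reference gene in place of TMM. With Gapdh as the reference, the amount of Ccn1 relative to the EV mean was 0.843 and 1.19 in EV, 1.80 in TC, and 1.86, 1.90 and 1.83 in TC + ATA. Amotl2 had 0.908 and 1.10 in EV, 1.20 in TC, and 1.40, 1.31 and 1.25 in TC + ATA. Ccn2 had 0.963 and 1.04 in EV, 1.05 in TC, and 1.12, 1.08 and 1.10 in TC + ATA. Ccn1, Amotl2 and Ccn2 thus lay above EV in every fusion-expressing library. Ankrd1 had 0.876 and 1.14 in EV, 0.966 in TC, and 1.03, 0.974 and 0.986 in TC + ATA, all of which lay between the EV libraries.

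With TMM, edgeR called all 4 targets higher in TC than in EV. Scaled to Gapdh, only Ccn1 of these targets was called between TC and EV, at an LFC of 0.83 (standard error 0.15, adjusted p = 0.000102 from edgeR). Amotl2 had 0.26 (standard error 0.14, adjusted p = 0.124 from edgeR) and Ccn2 had 0.07 (standard error 0.14, adjusted p = 0.692 from edgeR). Ankrd1 had −0.06 (standard error 0.16, adjusted p = 0.774 from edgeR). With the pseudogene copies added to Gapdh the LFCs were 0.86 for Ccn1 (adjusted p = 0.00505 from edgeR), 0.30 for Amotl2, 0.12 for Ccn2 and −0.02 for Ankrd1, and again Ccn1 alone was called.

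Scaled to Gusb, the reference that gave the highest values in TC versus EV, the amount of Ccn1 was 0.909 and 1.10 in EV, 2.66 in TC, and 2.04, 2.29 and 2.32 in TC + ATA. Scaled to B2m, which gave the lowest, it was 0.811 and 1.23 in EV, 1.39 in TC, and 1.10, 1.15 and 1.15 in TC + ATA. The treated libraries overlapped EV with B2m and lay well above EV with Gusb. They lay below TC with both of these references and above TC with Gapdh.

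Over the 9 references, the LFC of Ccn1 between TC and EV ran from 0.45 (B2m) to 1.40 (Gusb), and 8 of the 9 scalings called it higher. That of Amotl2 ran from −0.12 to 0.82 and was called with Hprt, Tbp, Ppia, Ywhaz and Gusb. Ccn2 ran from −0.30 to 0.63 and Ankrd1 from −0.44 to 0.51, and each was called with Tbp, Ywhaz and Gusb only. In all, 19 of the 36 pairs of target and reference were called, all of them higher, and 12 when only the groups compared were fitted. With the geometric mean of the 9 references as the scaling, Ccn1 had 1.02, Amotl2 0.45 and Ccn2 0.26, all called, and Ankrd1 had 0.13 and was not (adjusted p = 0.449 from edgeR).

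For TC + ATA against TC the sign depended on the reference. The lowest values came with B2m, at −0.30 for Ccn1, −0.28 for Ccn2, −0.30 for Ankrd1 and −0.21 for Amotl2. The highest came with Actb, at 0.22, 0.24, 0.22 and 0.31 in the same order. All 4 targets were below 0 with B2m, Ppia and Gusb and above 0 with the other 6 references. None of these 36 pairs was called by edgeR. At an unadjusted p under 0.05 there were 3 pairs, Amotl2 with Actb, and Ccn2 and Ankrd1 with Gusb, and DESeq2 called 1, Amotl2 with Actb (adjusted p = 0.0216 from DESeq2). Without EV replicate 1 edgeR called 14 pairs and without EV replicate 2 it also called 14.

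For TC + ATA against EV, 26 of the 36 pairs were called, 23 higher and 3 lower. The lower ones were Ccn2 (−0.58), Ankrd1 (−0.74) and Amotl2 (−0.33) scaled to B2m. Scaled to Ywhaz, which gave the highest values, the same targets had 0.67, 0.53 and 0.94 and were called higher. A call in the opposite direction can thus follow from the reference alone.

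**Figure D3:**
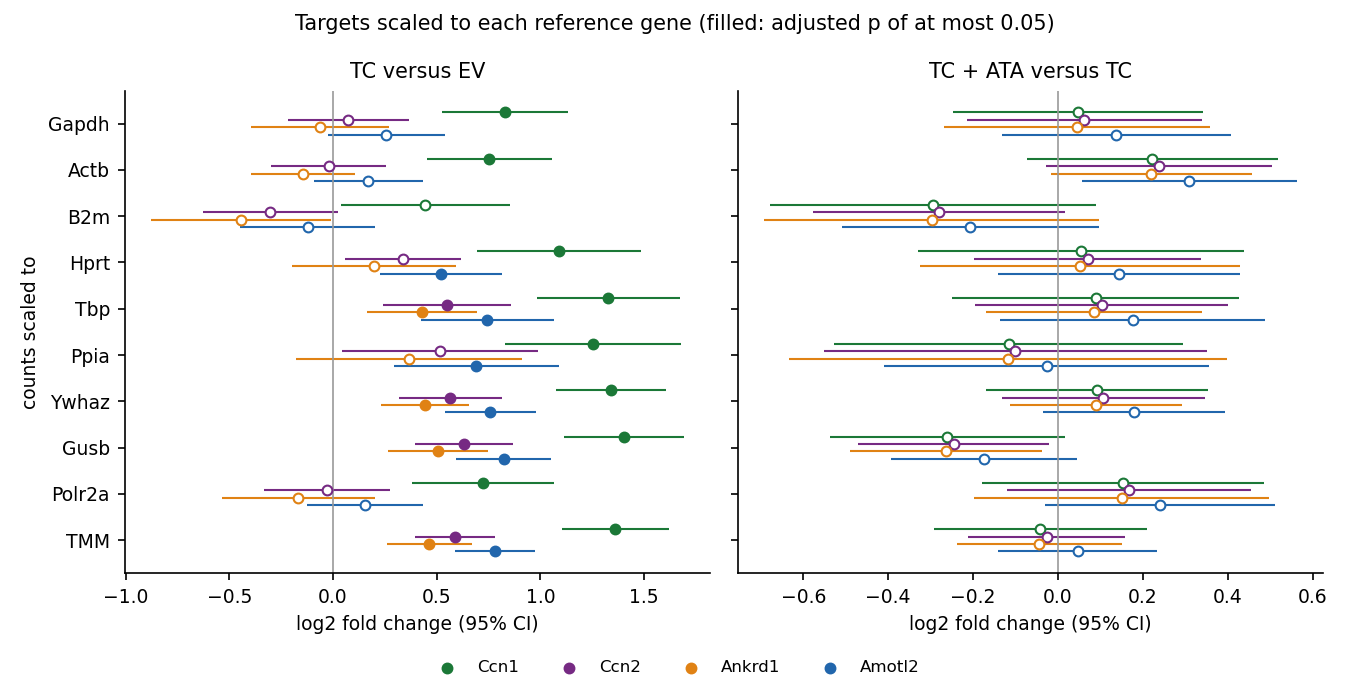
Log2 fold change of each target with libraries scaled to each reference gene or by TMM, with 95% confidence intervals; filled points have an adjusted p of at most 0.05. In TC versus EV the values shift from lowest with B2m to highest with Gusb, and in TC + ATA versus TC they fall on either side of 0.

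The same shift acts on the whole transcriptome, and the spread of the reference between libraries also enters every gene scaled to it. The share of genes called need not follow the shift. With Ppia, the median LFC of all genes was only −0.11 in TC versus EV. The SD of its log2 CPM was 0.35 between the EV libraries. What part each has in the shares was not tested. In TC versus EV the share of all genes called was 9.60% when scaled to Ppia, 22.1% to Hprt, 22.6% to Tbp, 25.9% to Gusb and 26.3% to Ywhaz. It was 39.5% with the geometric mean, 48.0% with Gapdh, 51.9% with Polr2a, 56.5% with Actb and 62.1% with B2m. Scaled to Gapdh, 981 genes were called higher and 7922 lower, and the median LFC of all genes was −0.55. These 8903 calls became 4479 with only the groups compared, 4849 with the replicate block, and 3774 with the pseudogene copies added to Gapdh. Scaled to B2m there were 575 higher and 10929 lower, with a median of −0.92. Scaled to Ywhaz the split was 2394 and 2488, with a median of −0.05.

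Shares between TC + ATA and TC were 0.0485% with Ppia, 0.108% with B2m, 0.200% with Hprt, 0.432% with the geometric mean, 0.653% with Gapdh and 0.669% with Polr2a. They were 0.798% with Tbp, 1.04% with Ywhaz, 3.19% with Gusb and 4.74% with Actb. Actb gave 860 genes higher and 18 lower, whereas Gusb gave 65 higher and 526 lower. With Gapdh the count was lower once its pseudogene copies were added, as given under the processing. Scaled to Gapdh alone, 121 genes were called. That count was 936 without EV replicate 1, 944 without EV replicate 2 and 19 without TC + ATA replicate 3.

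Shares between TC + ATA and EV were 18.0% with Ppia, 30.2% with Hprt, 30.6% with Tbp, 34.3% with Ywhaz and 43.7% with Gusb. They were 50.1% with the geometric mean, 53.5% with Actb, 53.7% with Polr2a, 55.8% with Gapdh and 75.7% with B2m. With Gapdh, 10339 genes were called, and fewer once its pseudogene copies were added, as given under the processing. B2m gave 527 genes higher and 13501 lower, and Ywhaz gave 4109 higher and 2244 lower.

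The references were also scaled to each other. Of the 36 pairs of reference genes, 16 were called in neither direction of scaling between TC and EV. That number was 35 between TC + ATA and TC, and 14 between TC + ATA and EV. The pair called in TC + ATA versus TC was Actb with Gusb.

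Related genes were described by lists grouped by function, with the reference gene counted in its list, and the median of all genes tested was −0.03 in TC versus EV. Of all genes tested, 28.0% were called in that comparison, 2735 higher and 2456 lower, which is the share to set beside each list. Of 17 glycolytic genes tested, 9 were called higher and 2 lower in that comparison, with a median LFC of 0.51. Hexokinase Hk2 had the largest increase (EV 30.7 ± 1.59 CPM, SD, n = 2; TC 99.997 CPM; LFC 1.70, standard error 0.09, adjusted p = 2.29e-06 from edgeR). Pfkp followed at 1.59, and the called decreases were those of Ldhb at −1.63 and Pfkm at −0.34. Of 6 actin genes, Actb and Acta2 (0.62) were called higher and 0 lower. The smooth muscle actin Acta2 was also higher in TC + ATA than in TC, where it reached 1217.5 ± 32.1 CPM (SD, n = 3) against 619.99 CPM (LFC 0.97, standard error 0.15, adjusted p = 0.0303 from edgeR).

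B2m pairs with the heavy chains of MHC class I. Of 18 genes for heavy chains, peptide loading and their regulation, 6 were called higher and 4 lower in TC versus EV, with a median of −0.18. The transactivator Nlrc5 had the largest increase (EV 1.33 ± 0.215 CPM, SD, n = 2; TC 9.87 CPM; LFC 2.89, standard error 0.16, adjusted p = 3.60e-06 from edgeR). B2m came next, and H2-Q4 (−0.69) and the peptide transporter Tap1 (−0.56) had the largest decreases among the genes called. Of 10 genes tested for purine salvage, interconversion and breakdown, 5 were higher and 0 lower (median 0.35), led among called genes by Adk at 0.87 and Xdh at 0.53. Hprt was not among them.

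Of all genes, 28.0% were called in the same comparison. Of 17 genes of TBP and its associated factors, 3 were higher and 1 lower (median −0.10), the largest called being Taf4b at 0.85, Tbpl1 at 0.33 and Taf13 at −0.43. Of 13 RNA polymerase II subunits, 3 were higher and 0 lower, led by Polr2e (0.62) and Polr2a, with a median of 0.02. Of 15 cyclophilins tested, Ppic (0.43) and Ranbp2 (0.34) were higher and Ppil2 (−0.39) lower (median 0.01). Of 7 genes of the 14-3-3 family, 3 were higher and 0 lower (median 0.14), with Ywhae at 0.44 and Ywhah at 0.36. Of 24 lysosomal hydrolases, 5 were higher and 2 lower (median −0.02), with Hexa at 0.93, Sgsh at −0.94 and Aga at −0.43.

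Of 38 other genes proposed as references, 7 were called higher and 1 lower in TC versus EV, against 28.0% of all genes. Their median LFC was 0.02. The largest increases were those of Tfrc (0.87) and Pgk1 (0.78). The median SD of log2 CPM was 0.16 for these 38 genes and 0.17 for the 9. It was also 0.16 for all genes with a mean of at least 10 CPM. Of the 38, 8 were higher and 7 lower between TC + ATA and EV, against 36.6% of all genes called.

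Between TC + ATA and TC, Acta2 was the gene that edgeR called among the 151 genes tested of these 10 lists apart from the 9 references, against 0.583% of all genes. At an unadjusted p under 0.05 there were 18, against 1781 of the 18539 genes tested, and DESeq2 called 3, Acta2, Hk2 and Tapbp. Between TC + ATA and EV, 64 of the 151 were called, against 36.6% of all genes. In the full lists, with the reference gene counted, 9 glycolytic genes were higher, Gapdh among them, and 1 lower. Of the lysosomal hydrolases, 11 were higher and 3 lower. The full MHC class I list had 6 higher, B2m among them, and 1 lower, and the TBP list 2 higher and 5 lower.

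Promoter sequences of 300 bases, from 250 before to 50 after the transcription start, were taken from RefSeq (GRCm38.p6) and matched 7 of the 9 reference genes, with no entry for Actb and Ywhaz. They were searched on both strands for GGAATG, the core of the TEAD binding motif, and for TATAAA. The former occurs in 14.7% of all 32851 promoters, in 0 of the 7 and in 3 of 3 matched targets, with no entry for Ccn2. It starts at −103 in Ccn1, at −210 and −123 in Ankrd1 and at −65 in Amotl2, relative to the transcription start. The latter occurs in 13.6% of all promoters, in B2m at −152, Ppia at −29 and Polr2a at −33, and in Ccn1 at −25. The absence of these letters says nothing on regulation from outside the window. In B2m and Polr2a the match is to TATAAA only, on the opposite strand in B2m, whereas Ccn1 holds both motifs. Ppia holds TATAAA and was not called in TC versus EV (LFC 0.04). Gapdh holds neither and was called with TMM. A link of the motifs to the changes was not tested. The promoters of B2m (chr2:122147437-122147736, plus strand) and Polr2a (chr11:69758584-69758883, minus strand) are shown beside that of the target Ccn1 (chr3:145649936-145650235, minus strand). Matches on either strand are in capitals.
B2m: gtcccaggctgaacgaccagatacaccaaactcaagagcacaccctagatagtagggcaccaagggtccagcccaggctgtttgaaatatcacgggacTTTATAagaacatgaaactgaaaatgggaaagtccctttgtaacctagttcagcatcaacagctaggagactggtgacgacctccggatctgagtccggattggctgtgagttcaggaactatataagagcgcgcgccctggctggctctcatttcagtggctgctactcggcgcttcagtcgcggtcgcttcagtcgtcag
Polr2a: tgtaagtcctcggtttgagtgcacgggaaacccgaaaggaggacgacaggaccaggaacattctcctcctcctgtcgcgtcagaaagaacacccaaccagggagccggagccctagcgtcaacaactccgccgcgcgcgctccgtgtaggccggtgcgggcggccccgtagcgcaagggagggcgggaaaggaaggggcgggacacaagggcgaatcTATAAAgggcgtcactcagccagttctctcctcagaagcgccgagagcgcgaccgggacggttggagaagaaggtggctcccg
Ccn1: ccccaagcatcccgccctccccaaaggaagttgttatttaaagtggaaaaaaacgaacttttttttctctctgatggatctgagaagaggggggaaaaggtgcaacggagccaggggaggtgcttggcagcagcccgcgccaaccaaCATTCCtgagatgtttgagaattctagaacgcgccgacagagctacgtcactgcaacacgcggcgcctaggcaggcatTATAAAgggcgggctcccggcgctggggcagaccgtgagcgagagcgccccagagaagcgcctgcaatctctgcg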

How the data were processed

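The deposited values are raw counts per gene, which the authors made with featureCounts after HISAT2 2.2.1 alignment of paired-end reads to GRCm38.p6; the annotation release and strand setting are not stated. Genes were matched to GENCODE M21. All 6 libraries were fitted together in R 4.3.3 with edgeR 4.0.16 (filterByExpr, TMM, quasi-likelihood test with 3 residual degrees of freedom, Benjamini-Hochberg adjustment over all 18539 genes tested, call at an adjusted p of at most 0.05). Intervals are at 95% and cover the spread between libraries. For scaling to a reference, the effective library size was made proportional to its count. Copies were sought by shared words of 50 bases. Fits were tested on data simulated with the same spread per gene in all groups. The EV and TC + ATA libraries differed in spread, which that test does not cover. The genes named are the 9 references, the 4 targets, at most the 2 largest called in each direction per list, those called between TC + ATA and TC, the most abundant and undetected markers, at most the 2 nearest in pattern and the 5 most even. The members and lists were chosen with earlier results of these data known. Alternatives were DESeq2 1.42.0, other scalings and filters, only the groups compared, a replicate block, stricter copies, and each EV and TC + ATA library left out; summing pseudogene copies, and counting pseudogenes with any shared word, were chosen after seeing the data.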

Additional observations from a re-analysis of the deposited data

How the results depend on the processing

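Of 351 log2 fold changes of the reference genes under an alternative, 310 kept their direction and their side of the threshold, 26 gained and 7 lost a call, and 8 reversed. Library totals only reversed Tbp (−0.076), Ppia (−0.058) and Ywhaz (−0.088) in TC versus EV. With DESeq2, TC + ATA versus TC gave 398 genes, 1 pair of target and reference, and 214 genes scaled to Gapdh. With a filter of at least 1 count, 350 genes and 221 genes scaled to Gapdh were called there. With only the groups compared, TC versus EV gave 12 pairs and 4479 genes scaled to Gapdh, and Actb was not called (adjusted p = 0.210 from edgeR). TC + ATA versus TC then gave 1428 genes, 4 reference genes, 14 pairs and 932 genes scaled to Gapdh. By construction these fits have fewer residual degrees of freedom. The fit of TC + ATA versus TC also takes its spread from the TC + ATA libraries alone, without the EV pair. Each EV or TC + ATA library left out in turn gave log2 fold changes in TC versus EV from −0.19 to 0.30 for Ppia, −0.048 to 0.11 for Tbp and −0.029 to 0.060 for Ywhaz, and −0.10 to 0.37 for Ppia in TC + ATA versus EV. The range of the reference genes was then 0.91 to 1.10 in TC versus EV and 1.09 to 1.47 in TC + ATA versus EV, with 3 to 9 reference genes called in the latter. In TC + ATA versus TC, 10 to 1469 genes, 0 to 5 reference genes, 0 to 14 pairs and 19 to 944 genes scaled to Gapdh were called. With pseudogene copies summed, chosen after seeing the data, 3774, 24 and 5996 genes scaled to Gapdh were called in TC versus EV, TC + ATA versus TC and TC + ATA versus EV. Of the copies, 0 of Gapdh held 90% of its words, and pseudogenes with any word numbered 213 for Gapdh, 14 for Actb, 35 for Ppia and 3 for Ywhaz. The cause of these differences was not tested beyond what each setting changes by construction.

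EV and TC + ATA samples of the same replicate number share only a number in the labels. Their deviations from the group means correlated across genes at −0.0161 for number 1 and −0.164 for number 2. With the replicate block, Ppia in TC versus EV was −0.068. The replicate block gave 3184 genes and 4849 genes scaled to Gapdh in TC versus EV, and 40 and 74 in TC + ATA versus TC. Actb was not called with it in TC versus EV (adjusted p = 0.0539 from edgeR) or TC + ATA versus EV (adjusted p = 0.0883 from edgeR).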
